A study of Mus musculus with 8 samples.

Results

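Gene expression in Ly6C-positive classical monocytes of mouse bone marrow was compared between a conditional Bcl6 knockout (Bcl6 cKO, 2 libraries) and an Nr4a1 knockout (Nr4a1 KO, 2 libraries). These 4 libraries belong to a set of 8, which also holds 2 wild type and 2 Irf2 knockout libraries. The wild type libraries are used here to place each difference, and all 8 set the estimate of spread. Of the 13744 genes in the deposited table, the 12752 with a mean of at least 0 log2 CPM over the 8 libraries (CPM, read counts scaled to library size by the authors) were tested. No source used here names the Cre line or the Bcl6 exons of the conditional knockout, or the age and sex of the mice. Nothing in the labels ties a replicate to its own mouse, so the p-values rest on sample spread that may be technical.

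Ly6C-high monocytes are released from the marrow into blood, where some convert into Ly6C-low nonclassical monocytes that patrol the vessel wall. NR4A1 is an orphan nuclear receptor on which nonclassical monocytes depend, and it binds DNA as a monomer at a short element called NBRE. BCL6 is a zinc finger repressor best known from germinal centre B cells, which recruits corepressors such as NCOR1 and is known to bind its own gene. The title of the series ties Bcl6, Irf2 and Notch2 to nonclassical monocyte development, and the comparison sets classical monocytes labelled as knockouts of 2 regulators side by side.

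The libraries held 46617756 to 62633123 reads, and 1 CPM stood for 47.9 to 61.8 reads. The 2 Nr4a1 KO libraries were less alike than the 2 Bcl6 cKO libraries, with 761 and 197 genes respectively apart by more than 2-fold between replicates. The classical monocyte identity of the cells was visible in both groups. Lysozyme 2 (Lyz2) lay between 14.54 and 14.74 log2 CPM in the 4 libraries, the Ly6C gene Ly6c2 between 11.49 and 12.33, and the coagulation factor gene F13a1 between 11.25 and 11.58.

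Of the genes tested, 733 differed between the 2 knockouts at an adjusted p under 0.05 in limma (5.75%), and these are the genes referred to as called. Most were higher in Bcl6 cKO, 634 genes (4.97%), against 99 that were lower (0.776%). Differences above 2-fold made up 350 of the higher and 44 of the lower genes. The median difference over all genes tested was -0.0044 on the log2 scale. All differences below are log2 of Bcl6 cKO over Nr4a1 KO, given ± SE with n = 2 libraries per genotype, so a positive value means a higher level in Bcl6 cKO. With only Bcl6 cKO replicate 2 left to represent its group 367 genes were called, and with only replicate 1 left 250.

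**Figure D1:**
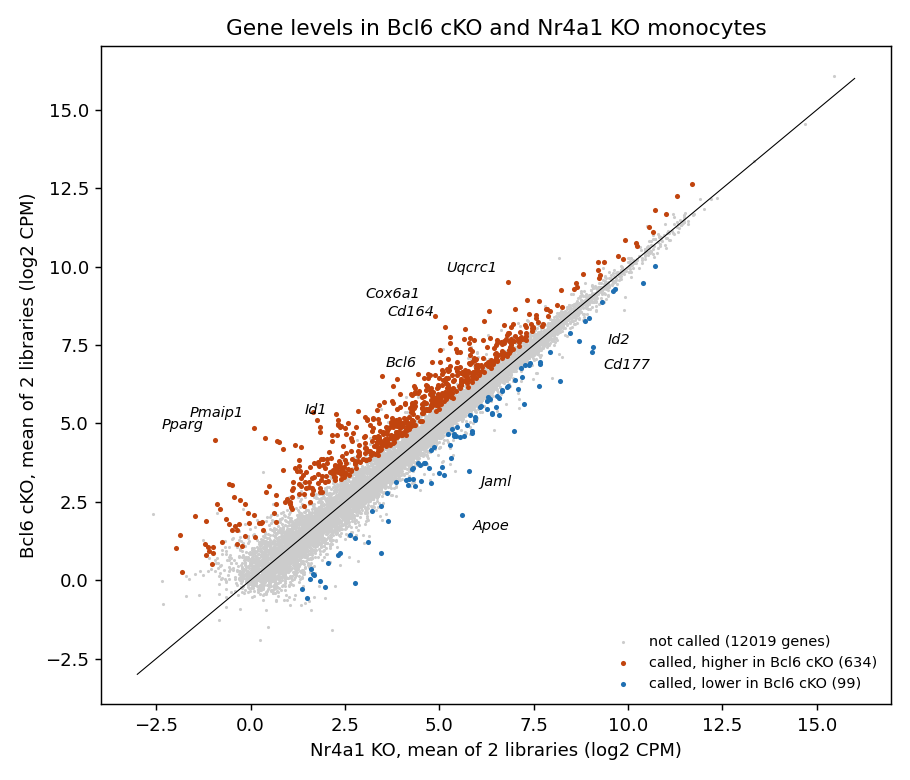
Mean level of each gene tested in Bcl6 cKO (vertical axis) against Nr4a1 KO (horizontal axis), both in log2 CPM, with the line of equal levels. The 634 called genes above the line far outnumber the 99 below it.

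The wild type libraries lay closer to Bcl6 cKO for most of the genes that were higher there. For 535 of the 634 (84.4%) both wild type libraries were nearer the Bcl6 cKO mean, against 46.9% of all genes tested, and for 420 of them (66.2%) the wild type mean lay above both knockouts, against 37.0% of all genes. Against wild type, 530 of the 634 were called lower in Nr4a1 KO (11.2% of all genes were), 112 were called lower in Bcl6 cKO (3.65% of all genes) and 56 were called higher there (1.36% of all genes). The 99 genes lower in Bcl6 cKO were spread differently, with the wild type mean between the knockouts in 77 of them (77.8%, against 26.1% of all genes). Of the 99, 31 were called higher in Nr4a1 KO than in wild type (3.94% of all genes). Called lower in Bcl6 cKO than in wild type were 27 of the 99 (3.65% of all genes). Another 44 of the 99 were called in neither comparison (44.4%, against 83.5% of all genes). Over all genes 5.01% were called in Bcl6 cKO against wild type and 15.1% in Nr4a1 KO against wild type. These comparisons share the libraries with the one described, so the counts place the genes and are no separate evidence.

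Of the deleted genes, Nr4a1 was lowest in its own knockout, whereas Bcl6 was highest in the libraries labelled Bcl6 cKO. Nr4a1 (ENSMUSG00000023034, chromosome 15, 101254269 to 101274795 on GRCm38) read 4.49 and 4.56 log2 CPM in Bcl6 cKO, 2.32 and 2.98 in Nr4a1 KO, and 4.64 and 5.29 in wild type. It was 3.67-fold higher in Bcl6 cKO than in Nr4a1 KO (1.88 ± 0.27, adjusted p = 0.00398), with no overlap, and the call ended without Bcl6 cKO replicate 2 (adjusted p = 0.0584). Bcl6 (ENSMUSG00000022508, chromosome 16, 23965052 to 23988852) read 6.53 and 6.40 in the libraries labelled Bcl6 cKO, 4.65 and 4.74 in Nr4a1 KO, and 4.66 and 4.64 in wild type. Bcl6 reads were thus 3.40-fold higher in the libraries labelled Bcl6 cKO than in Nr4a1 KO (1.77 ± 0.16, adjusted p = 0.000487), while Nr4a1 KO differed from wild type by 0.05 and was not called. The value counts reads over the whole gene, so it does not check the label, and every direction here is that of the libraries labelled Bcl6 cKO. Irf2, the gene deleted in the fourth genotype, did not pass the test (-0.19 ± 0.14, adjusted p = 0.513).

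Promoter windows that hold the letters of either factor's element were few in both directions. The windows are from RefSeq on GRCm38.p6 (250 bases before to 50 after a start site), with 11004 windows matched by symbol for 8677 of the genes tested. The NBRE letters AAAGGTCA, searched on both strands, stood in 1.04% of all windows, in 1 of 629 windows of called genes higher in Bcl6 cKO (0.159%) and in 2 of 102 windows of called genes lower there (1.96%). The BCL6 letters TTCCTNGAA stood in 1.25% of all windows, in 7 of 629 (1.11%) and in 1 of 102 (0.980%). The 2 windows shown are those of Bcl6 itself, at a start site inside the gene (chr16:23981284-23981533, minus strand), and of the chemokine gene Ccl6 (chr11:83593088-83593337, minus strand), described below. Each is printed 5′ to 3′ along the gene up to the base before the start site, with the matching letters in capitals. In Bcl6 the BCL6 letters begin at position -168 from the start site, and in Ccl6 the NBRE letters stand on the opposite strand, at -88. A match is a description of these letters and not a bound site.
Bcl6: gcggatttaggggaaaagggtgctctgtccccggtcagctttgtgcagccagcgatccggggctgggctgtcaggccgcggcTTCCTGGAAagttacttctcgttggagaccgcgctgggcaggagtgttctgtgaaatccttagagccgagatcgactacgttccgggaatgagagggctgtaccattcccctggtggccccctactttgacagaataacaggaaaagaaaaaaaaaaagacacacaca
Ccl6: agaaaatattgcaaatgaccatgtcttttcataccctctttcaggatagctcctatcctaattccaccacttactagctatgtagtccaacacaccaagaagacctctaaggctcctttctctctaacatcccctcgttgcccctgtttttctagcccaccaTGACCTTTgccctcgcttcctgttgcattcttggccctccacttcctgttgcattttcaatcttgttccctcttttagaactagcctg

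None of 20 tested BCL6 corepressor genes was called in limma (-0.73 to 0.63), with 7 at an unadjusted p under 0.05, against 18.8% of all genes tested. With voom weights 0 were called, but 2 were called lower under quantile normalization, median centring or the GC and length correction, and 1 with a minimum of 4 CPM or without Nr4a1 KO replicate 2. Nuclear receptors and monocyte transcription factors supplied several of the clearest differences. Pparg (ENSMUSG00000000440, chromosome 6, 115360951 to 115490399), the fatty acid-sensing receptor of macrophage lipid metabolism, read 4.32 and 4.61 log2 CPM in Bcl6 cKO against -0.74 and -1.16 in Nr4a1 KO. The difference of 42.6-fold (5.41 ± 0.39, adjusted p = 0.000152) went to both sides of wild type (1.36 and 0.90), where it read 3.34 higher in Bcl6 cKO (adjusted p = 0.00446). In Nr4a1 KO it lay -2.08 from wild type (adjusted p = 0.00799). Nr1h2, which encodes the oxysterol receptor LXR beta, read 6.62 and 6.67 in Bcl6 cKO and 4.88 and 5.30 in Nr4a1 KO (1.56 ± 0.17, adjusted p = 0.00105), with wild type above both at 6.80 and 7.20. With Nr4a1 these made 3 of 19 tested nuclear receptors that were higher in Bcl6 cKO (15.8%). Of all genes tested 5.75% were called and 4.97% called higher. Nr4a1 is the gene deleted in Nr4a1 KO, so its call says nothing about the other receptors. None was called lower. The list's median was 0.14, and the well-expressed Nr3c1 (0.14, adjusted p = 0.591) and Rxra (0.45, adjusted p = 0.182) did not pass.

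Among 39 tested monocyte transcription factors, 4 were higher in Bcl6 cKO and 3 lower (median 0.18). Together they made up 17.9% of the list, against 5.75% called over all genes tested. Id1, an inhibitor of E proteins, read 4.77 and 5.16 in Bcl6 cKO, 2.27 and 2.36 in Nr4a1 KO and 6.20 and 5.85 in wild type, a difference of 6.29-fold (2.65 ± 0.18, adjusted p = 0.00012). Myc, the growth regulator, read 4.94 and 5.07 in Bcl6 cKO, close to wild type (4.77 and 4.84), and 2.19 and 2.997 in Nr4a1 KO (2.41 ± 0.25, adjusted p = 0.000891). Cebpe, which drives late granulocyte maturation, was also higher in Bcl6 cKO (2.77 and 2.97 against 1.25 and 0.93), although both knockouts lay below wild type (4.88 and 4.97). Id1 and Cebpe thus stood in the same order, wild type over Bcl6 cKO over Nr4a1 KO, with no overlap between groups. Tfec, a MiT-family factor of macrophages, had another order, at 6.999 and 6.86 in Bcl6 cKO against 5.59 and 5.98 in Nr4a1 KO and 5.68 and 5.74 in wild type (1.15 ± 0.14, adjusted p = 0.0018).

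Among the factors lower in Bcl6 cKO were Id2, another E protein inhibitor, and Hhex (-0.57), a homeobox factor named after its value was seen. Id2 read 7.26 and 7.60 in Bcl6 cKO against 9.44 and 8.71 in Nr4a1 KO and 8.92 and 8.62 in wild type (-1.64 ± 0.23, adjusted p = 0.00396). Id1 and Id2 therefore differed in opposite directions between the same libraries. The interferon regulatory factors Irf5 (0.21, adjusted p = 0.34) and Irf8 (0.16, adjusted p = 0.76), both high in all 4 libraries, did not pass. The Id2 call ended without Bcl6 cKO replicate 1 (adjusted p = 0.0508).

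The largest differences above a mean of 2 log2 CPM were mixed in function. Pmaip1, which encodes the pro-apoptotic protein NOXA, read 4.90 and 4.79 in Bcl6 cKO and -1.32 and 1.52 in Nr4a1 KO, or 26.8-fold higher (4.74 ± 0.75, adjusted p = 0.00716). Cd164 (chromosome 10, 41519414 to 41531048), a sialomucin of haematopoietic cells, had one of the smallest adjusted p-values, at 8.17 and 8.00 in Bcl6 cKO, 4.98 and 5.32 in Nr4a1 KO and 6.70 and 6.62 in wild type (2.94 ± 0.13, adjusted p = 3.73e-05). Like Pparg, Cd164 was called in opposite directions against wild type, by 1.43 for Bcl6 cKO (adjusted p = 0.00233). For Nr4a1 KO the value was -1.51 (adjusted p = 0.000117). The Pmaip1 call ended without Bcl6 cKO replicate 1 (adjusted p = 0.0701) or 2 (0.0792).

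A set of these genes stood apart through low values in Nr4a1 KO. Cox6a1, a subunit of cytochrome c oxidase, read 8.06 and 8.79 in Bcl6 cKO, 4.64 and 5.11 in Nr4a1 KO and 9.32 and 9.64 in wild type (3.54 ± 0.24, adjusted p = 0.000137). Snrpa, a protein of the spliceosome, read 6.24 and 6.78, then 3.16 and 3.82, and 7.16 and 7.27 in the same order of groups (3.02 ± 0.23). The AlkB homologue Alkbh6 (3.34 ± 0.22), the cytochrome oxidase assembly factor Coa6 (3.07 ± 0.26), 2310039H08Rik (3.15 ± 0.20) and Gm5617 (4.15 ± 0.44) shared the pattern. All 6 were called lower in Nr4a1 KO than in wild type, by -3.09 to -4.84, and of the 6 only Cox6a1 (-1.06) and Alkbh6 (-1.09) were called against wild type in Bcl6 cKO.

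Other genes stood apart through high values in Bcl6 cKO. Dcaf1, a substrate receptor of the CRL4 ubiquitin ligase, read 5.40 and 5.23 in Bcl6 cKO against 2.10 and 2.41 in Nr4a1 KO and 2.30 and 2.36 in wild type (3.05 ± 0.24, adjusted p = 0.00026). P2ry13, an ADP receptor of myeloid cells, read 4.18 and 4.34 against 1.08 and 1.61 and 1.86 and 1.40 (2.92 ± 0.30, adjusted p = 0.000851). For both genes wild type lay near Nr4a1 KO, and Nr4a1 KO minus wild type was -0.07 for Dcaf1 and -0.29 for P2ry13, neither called. The interferon-inducible genes Trim30c (3.34 ± 0.40) and Oas1g (3.69 ± 0.72) completed the 12 largest, and the Oas1g call ended without Bcl6 cKO replicate 1 (adjusted p = 0.112) or 2 (0.159). Trim30c, Oas1g and Gm5617 have close relatives in the genome, and no source used here says how reads shared with these were counted.

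**Figure D2:**
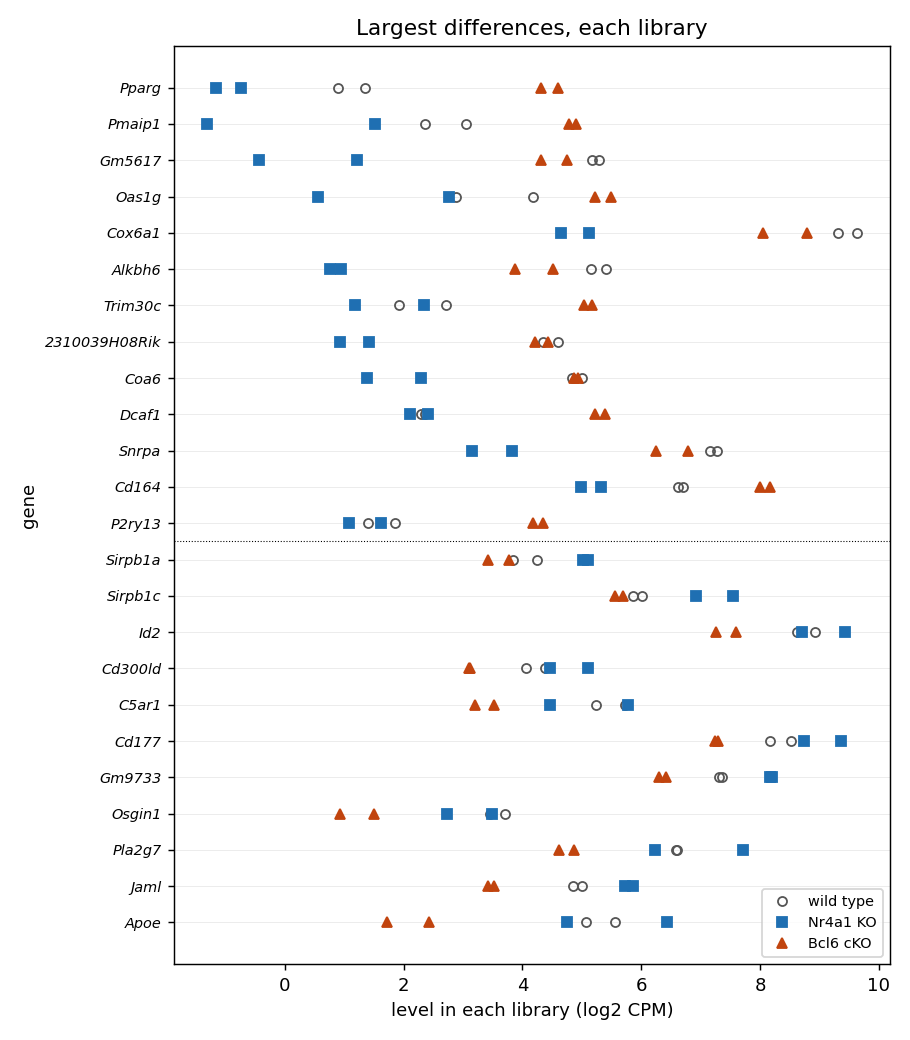
Level of Pparg and of the genes named in the text for the largest differences in each direction, in every wild type, Nr4a1 KO and Bcl6 cKO library (horizontal axis, log2 CPM). Above the dotted line Bcl6 cKO lies to the right of Nr4a1 KO and below it to the left, and wild type sits beside Bcl6 cKO for genes such as Coa6 and beside Nr4a1 KO for genes such as Dcaf1.

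The genes with the largest differences towards lower levels in Bcl6 cKO were led by Apoe. Apoe (chromosome 7, 19696109 to 19699188), the apolipoprotein secreted by macrophages, read 1.72 and 2.43 in Bcl6 cKO against 6.44 and 4.74 in Nr4a1 KO and 5.56 and 5.06 in wild type, or 11.5-fold lower (-3.52 ± 0.50, adjusted p = 0.00396). Pla2g7, a phospholipase that inactivates platelet-activating factor, read 4.61 and 4.87 against 7.72 and 6.23 (-2.23 ± 0.39, adjusted p = 0.0121), with wild type at 6.61 and 6.59. For both genes wild type lay with Nr4a1 KO, and Nr4a1 KO replicate 1 was the higher of its group. Without Bcl6 cKO replicate 1 the Apoe call ended (adjusted p = 0.0508), and so did that of Pla2g7 (0.107), which also ended without replicate 2 (0.0919).

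Jaml, a junctional adhesion molecule of leukocytes, showed wild type in between. It read 3.42 and 3.53 in Bcl6 cKO, 5.004 and 4.85 in wild type and 5.73 and 5.87 in Nr4a1 KO (-2.32 ± 0.23, adjusted p = 0.000741), and was called against wild type in both knockouts (-1.45, adjusted p = 0.0116, and 0.87, adjusted p = 0.0362). C5ar1, the receptor for complement C5a, read 3.19 and 3.53 against 5.77 and 4.47 (-1.76 ± 0.38, adjusted p = 0.0292), and Osgin1, a gene of the oxidative stress response, 1.50 and 0.93 against 3.49 and 2.73 (-1.90 ± 0.35, adjusted p = 0.0137). In both, Bcl6 cKO lay below wild type and Nr4a1 KO alike, and C5ar1 was not called when only the 2 groups were fitted. The C5ar1 call ended without Bcl6 cKO replicate 1 (adjusted p = 0.2) or 2 (0.132), and that of Osgin1 without Bcl6 cKO replicate 2 (0.132) or Nr4a1 KO replicate 1 (0.0532).

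Paired and Fc receptors, which tune activation of myeloid cells through ITIM and ITAM motifs, moved in both directions, with 4 of 30 tested higher in Bcl6 cKO and 3 lower (median -0.25). The called genes made up 23.3% of the list, against 5.75% of all genes tested. Higher were the lectin Clec4n, also called dectin-2, and the PILR genes. Clec4n read 4.06 and 4.73 in Bcl6 cKO, 0.27 and 1.22 in Nr4a1 KO and 0.96 and 0.21 in wild type (3.65 ± 0.49, adjusted p = 0.00303). The inhibitory Pilra read 7.71 and 7.75 against 6.48 and 6.21 (1.38 ± 0.13, adjusted p = 0.000673), and its activating partners Pilrb1 (1.22 ± 0.19) and Pilrb2 (0.85 ± 0.17) differed the same way. All 4 were called higher in Bcl6 cKO than in wild type and none was called in Nr4a1 KO against wild type. Without Bcl6 cKO replicate 2 the calls of Clec4n (adjusted p = 0.0578), Pilrb1 (0.0779) and Pilrb2 (0.132) ended, as did those of Pilrb1 (0.0605) and Pilrb2 (0.127) without replicate 1.

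Lower in Bcl6 cKO were the inhibitory lectin Clec12a, Cd300ld and Clec4a1 (-0.67), the last named after its value was seen. Clec12a read 7.74 and 7.55 in Bcl6 cKO, 8.68 and 8.72 in Nr4a1 KO and 8.17 and 8.19 in wild type, in between (-1.05 ± 0.10, adjusted p = 0.000574). Cd300ld read 3.09 and 3.11 against 5.11 and 4.47 (-1.69 ± 0.29, adjusted p = 0.0112), and its call ended without Bcl6 cKO replicate 1 (adjusted p = 0.0879) or 2 (0.101). Of the SIRP beta relatives, Gm9733 was lower at 6.29 and 6.42 against 8.19 and 8.18 (-1.83 ± 0.22, adjusted p = 0.00158), with wild type in between at 7.30 and 7.36. Sirpb1c (-1.62 ± 0.25, adjusted p = 0.00676) and Sirpb1a (-1.46 ± 0.32, adjusted p = 0.0302) were also lower, although these genes are near copies and reads may be split between them. The Sirpb1c call ended without Bcl6 cKO replicate 1 (adjusted p = 0.0711) or 2 (0.0653), and that of Sirpb1a without any of Bcl6 cKO replicate 1 (0.207), replicate 2 (0.123), Nr4a1 KO replicate 1 (0.0793) or replicate 2 (0.0564). The shared ITAM adaptors Fcer1g (-0.10, adjusted p = 0.583) and Tyrobp (-0.18, adjusted p = 0.392) did not pass.

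Genes that mark the 2 monocyte subsets did not move as blocks. Of 22 tested nonclassical genes 3 were higher in Bcl6 cKO and 1 lower (median -0.14). Of 29 classical genes 1 was higher and 5 lower (median -0.10). Called were 18.2% and 20.7% of the 2 lists, against 5.75% of all genes tested (4.97% higher and 0.776% lower). Beside Pparg, the nonclassical genes that were higher were Ear2, an eosinophil-type ribonuclease (7.21 and 7.35 against 6.04 and 4.89, adjusted p = 0.0106), and Ace, the angiotensin-converting enzyme (2.02 and 2.05 against -2.28 and -0.65, adjusted p = 0.023). The integrin Itgal was lower (6.43 and 6.51 against 7.05 and 7.34, adjusted p = 0.0104). Cx3cr1, the fractalkine receptor that marks nonclassical monocytes, read 6.39 and 6.47 in Bcl6 cKO against 7.42 and 7.57 in Nr4a1 KO, without overlap. Its difference of -1.06 ± 0.51 did not pass in limma (adjusted p = 0.306), where the spread comes from all 8 libraries. With only the 2 groups fitted, or with the GC and length correction, 2 of the 22 nonclassical genes were called lower. CD43 (Spn) lay at -0.05 ± 0.16. Leaving out Bcl6 cKO replicate 1 ended the calls of Ear2 (adjusted p = 0.0745), Ace (0.143) and Itgal (0.09), and leaving out replicate 2 did too (0.113, 0.163 and 0.0775), as did Nr4a1 KO replicate 1 for Ace (0.074).

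Among the classical genes, Ccr2, the receptor by which monocytes leave the marrow, read 10.08 and 9.93 in Bcl6 cKO against 10.66 and 10.75 in Nr4a1 KO (-0.70 ± 0.13, adjusted p = 0.0145). Cd93 read 6.48 and 6.27 against 7.10 and 6.92 (-0.64 ± 0.12, adjusted p = 0.0153), and Gm9733, Cd177 and Sirpb1c made up the rest of the 5 lower genes. The calcium-binding protein gene S100a10 was the only called gene of this list that was higher, at 9.88 and 9.94 against 9.04 and 9.35 (0.71 ± 0.11, adjusted p = 0.00602). Ly6c2 (0.26, adjusted p = 0.655), Lyz2 (-0.13, adjusted p = 0.624) and F13a1 (-0.06, adjusted p = 0.873) did not pass. The calls of Ccr2 (adjusted p = 0.142), Cd93 (0.145) and S100a10 (0.0751) ended without Bcl6 cKO replicate 2, that of Ccr2 also without replicate 1 (0.0623) and that of Cd93 also without Nr4a1 KO replicate 1 (0.0634).

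Neutrophil genes gave 1 call among 20 tested (5%, against 5.75% of all genes tested), which was lower in Bcl6 cKO. Of the 20, 17 had both Bcl6 cKO libraries below both Nr4a1 KO libraries. Of all genes tested 49% did not overlap in either direction, made up of 25.6% with Bcl6 cKO higher and the rest with it lower. The median was -1.15, and the summed level was 10.50 and 10.28 log2 CPM in Bcl6 cKO, 11.71 and 11.37 in Nr4a1 KO and 11.37 and 11.17 in wild type. The called gene was Cd177, a neutrophil surface protein that is also in the classical list (7.24 and 7.29 against 9.37 and 8.74, -1.79 ± 0.22, adjusted p = 0.00183). The calprotectin genes S100a8 (8.78 and 8.45 against 10.09 and 9.68) and S100a9 (7.19 and 7.02 against 8.11 and 8.39) did not overlap but did not pass (adjusted p = 0.129 and 0.17). With only the 2 groups fitted, or without either Irf2 KO library, 5 of the 20 were called lower. The G-CSF receptor gene Csf3r lay between 6.99 and 7.27 in the 4 libraries. The part of neutrophil RNA in the lower genes was not tested, and in bulk RNA fewer cells of a type and less RNA per cell cannot be told apart. For other cell types, none of the tested genes passed in limma, and 0 in each list with voom weights. The lists were B cells (5), T and NK cells (1), erythroid cells (6), plasmacytoid dendritic cells (6) and basophils, mast cells and eosinophils (5). At an unadjusted p under 0.05 there were 0, 0, 1, 1 and 0, against 18.8% of all genes tested. With 5.75% of all genes called, lists this short can hold no call, so this says little about these cell types. With the replicate block, or without Nr4a1 KO replicate 2, 1 plasmacytoid gene was called higher. Of 10 macrophage genes 1 was called higher and 1 lower (20% called, against 5.75% of all genes tested). The higher one was Axl, a receptor for dying cells, at 3.88 and 3.64 in Bcl6 cKO against 1.82 and 1.77 in Nr4a1 KO (1.96 ± 0.34, adjusted p = 0.0112), and its call ended without Bcl6 cKO replicate 1 (adjusted p = 0.102) or 2 (0.0846). Without Nr4a1 KO replicate 2, 4 macrophage genes were called higher. Of 10 conventional dendritic cell genes 1 was called (10%, against 5.75% of all genes tested). It was the surface glycoprotein gene Cd24a, which was lower (-0.82 ± 0.18, adjusted p = 0.0304). Its call ended without either wild type library (adjusted p = 0.0522 and 0.0513), either Bcl6 cKO library (0.149 and 0.194) or Nr4a1 KO replicate 1 (0.102).

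**Figure D3:**
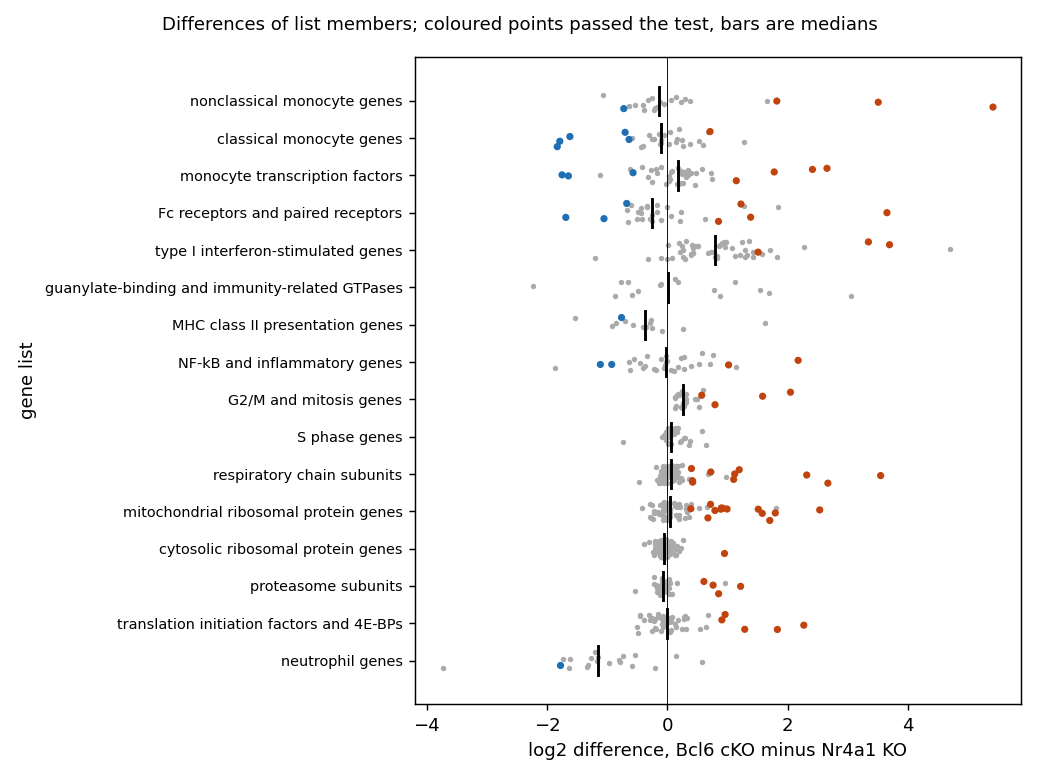
Difference of each tested member of 16 gene lists (horizontal axis, log2 of Bcl6 cKO over Nr4a1 KO). Orange points were called higher and blue points called lower in Bcl6 cKO, grey points were not called and bars are medians. The median of neutrophil genes is -1.15 and that of interferon-stimulated genes 0.79, while the called genes of the protein complexes are single points to the right of medians near 0.

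Interferon-stimulated genes, the antiviral genes switched on by type I interferon, were mostly higher in Bcl6 cKO by sign, yet few passed. Of 53 tested, 49 differences were positive and the median was 0.79, but 3 genes were called (Oas1g, Trim30c and Tor3a) and none lower. The called share was 5.66%, against 5.75% of all genes tested. Tor3a was no longer called without Bcl6 cKO replicate 1 (adjusted p = 0.0762) or 2 (0.135), and with the replicate block 8 genes were called. The libraries show where the spread lay. The 2 Bcl6 cKO libraries were alike, with medians of 0.15 and 0.29 above each gene's mean over the 8 libraries, whereas Nr4a1 KO replicate 1 lay at -1.51 and replicate 2 at 0.27, and wild type at -0.50 and 0.36. All 53 genes were higher in Nr4a1 KO replicate 2 than in replicate 1. Without Nr4a1 KO replicate 1 the median was -0.10, with 3 genes called higher and 2 lower, and without Nr4a1 KO replicate 2 it was 1.56, with 38 called higher. Trim30a, an abundant member, read 8.02 and 8.20 in Bcl6 cKO against 6.56 and 7.73 in Nr4a1 KO (0.97 ± 0.32, adjusted p = 0.139).

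The guanylate-binding and immunity-related GTPases, which defend the cytosol and respond strongly to interferon gamma, had a median of 0.01. None of 16 was called in limma (against 5.75% of all genes tested), and 0 with voom weights. At an unadjusted p under 0.05 there was 1, against 18.8% of all genes tested. All 16 were higher in Nr4a1 KO replicate 2 than in replicate 1, by a median of 3.56 on the log2 scale. Gbp7 read 7.94 and 7.70 in Bcl6 cKO, 4.94 and 7.63 in Nr4a1 KO and 5.33 and 5.63 in wild type. The immunity-related GTPase Irgm1 read 6.67 and 6.84 in Bcl6 cKO and 5.59 and 8.12 in Nr4a1 KO, and Ifi47 read 7.03 and 7.28 against 5.64 and 8.90, so that both Bcl6 cKO libraries lay between those of Nr4a1 KO. The list's median was -1.68 with 10 genes called lower without Nr4a1 KO replicate 1, and 1.94 with 12 called higher without replicate 2. The 2 Nr4a1 KO libraries therefore gave opposite directions for this family. The MHC class II invariant chain gene Cd74 and beta-2 microglobulin, B2m, split the same way. Cd74 read 8.85 and 9.18 in Bcl6 cKO against 8.53 and 11.33 in Nr4a1 KO (adjusted p = 0.624). B2m read 11.41 and 11.56 against 10.78 and 11.99 (adjusted p = 0.916). Cd74 does not stand for its list. Of 14 tested class II genes 2 had positive differences, and 1 was called, lower in Bcl6 cKO (7.14%, against 5.75% of all genes tested). The list's median was -0.37, with -0.73 without Nr4a1 KO replicate 1 and -0.03 without replicate 2.

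**Figure D4:**
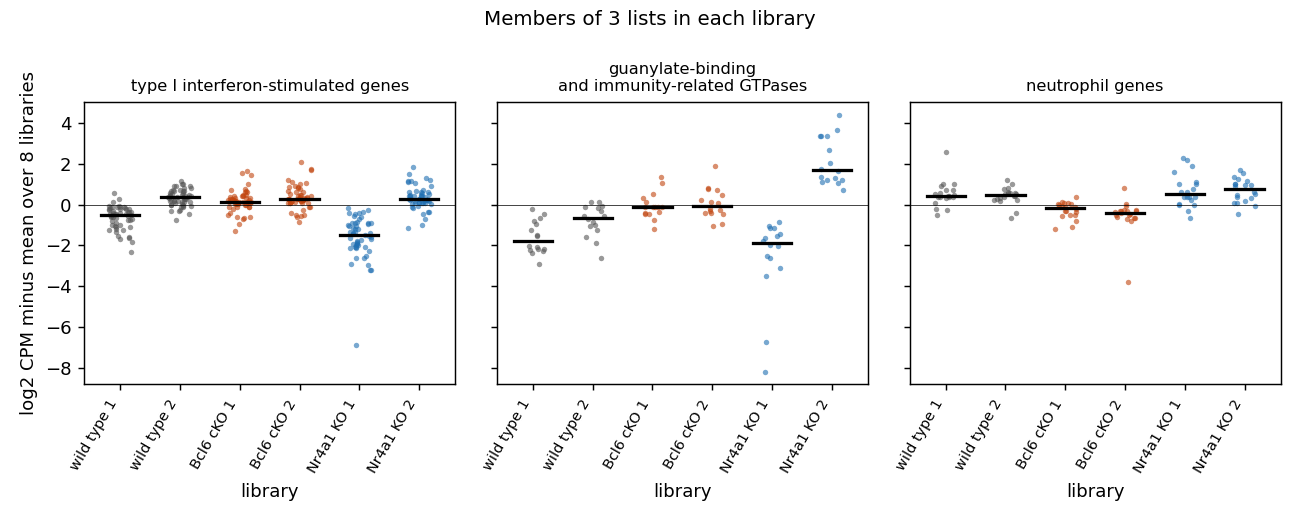
Level of each member of 3 lists in 6 libraries (vertical axis, log2 CPM minus the gene's mean over all 8 libraries), with bars at the median. Nr4a1 KO replicate 1 lies lowest and replicate 2 highest for the GTPases (medians -1.86 and 1.70), while the 2 Bcl6 cKO libraries lie together in all 3 panels.

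Genes of NF-kB signalling differed at single steps. Of 32 tested inflammatory genes 2 were higher in Bcl6 cKO and 2 lower (12.5% called, against 5.75% of all genes tested, median -0.02). Nfkbib, an inhibitor that holds NF-kB in the cytosol, read 4.93 and 5.49 in Bcl6 cKO, 2.64 and 3.44 in Nr4a1 KO and 5.91 and 6.27 in wild type (2.17 ± 0.28, adjusted p = 0.00258). The related Nfkbia, counted with the immediate early genes, read 6.29 and 7.37 against 5.25 and 5.32 (1.54 ± 0.32, adjusted p = 0.0237), both far below wild type (8.76 and 9.34). It was the only called gene of 17 tested in that list (5.88%, against 5.75% of all genes tested). Nfkbia was not called without the trend, with only the 2 groups fitted or with voom weights. The TNF receptor gene Tnfrsf1a was higher as well, at 7.53 and 7.57 against 6.38 and 6.69 (1.02 ± 0.14, adjusted p = 0.00362). Lower were Ccl6, at 9.50 and 9.43 against 10.54 and 10.23 (-0.92 ± 0.15, adjusted p = 0.00784), and the lipopeptide receptor Tlr1 (-1.11 ± 0.21, adjusted p = 0.0152). Ccl6, whose window is printed above, read 9.53 and 9.67 in wild type, beside Bcl6 cKO. Without Bcl6 cKO replicate 2 the calls of Nfkbia (adjusted p = 0.115), Tnfrsf1a (0.0518), Ccl6 (0.0923) and Tlr1 (0.118) ended, without replicate 1 that of Ccl6 (0.0572), and without Nr4a1 KO replicate 1 those of Nfkbia (0.0619) and Tlr1 (0.0523).

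The Notch pathway, named in the title of the series, gave 1 called gene of 22 tested (median -0.02). That share was 4.55%, against 5.75% of all genes tested. Aph1a, a subunit of the gamma-secretase that cleaves Notch, read 4.30 and 4.69 in Bcl6 cKO against 3.30 and 3.47 in Nr4a1 KO (1.11 ± 0.18, adjusted p = 0.00865), below wild type (5.07 and 5.36) in both. The gamma-secretase subunits Ncstn (-0.05) and Psenen (0.03) did not pass. The receptor Notch2 read 9.51 and 9.45 against 9.09 and 8.65 and just missed the threshold (0.61 ± 0.15, adjusted p = 0.0512). With a minimum of 4 CPM, the replicate block, library weights or voom weights, 2 genes of the list were called higher. The Aph1a call ended without Bcl6 cKO replicate 2 (adjusted p = 0.0947).

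Of 28 tested G2/M genes 4 were called, all higher in Bcl6 cKO, and 2 of these stayed called whichever library was left out. The 4 made up 14.3% of the list, against 5.75% called over all genes tested. All 28 differences were positive (0.12 to 2.05, median 0.26), also under quantile normalization, median centring and the correction for GC content and length. Without Bcl6 cKO replicate 1, 26 of the 28 were positive. Ube2c, the ubiquitin-conjugating enzyme of the anaphase-promoting complex, read 7.67 and 7.72 in Bcl6 cKO, 5.58 and 5.71 in Nr4a1 KO and 7.95 and 8.03 in wild type (2.05 ± 0.09, adjusted p = 3.73e-05). Cenpa, the centromeric histone, read 7.27 and 7.50 against 5.83 and 5.78 and 8.19 and 8.21 in wild type (1.58 ± 0.10, adjusted p = 0.00012). Both were highest in wild type and lowest in Nr4a1 KO. Cdc20 (0.79 ± 0.14, adjusted p = 0.0127) and Kif11 (0.57 ± 0.13, adjusted p = 0.0332) were the other two called, whereas Mki67 (0.31, adjusted p = 0.269) and Top2a (0.24, adjusted p = 0.239) did not pass. No S phase gene of 28 tested was called by limma (median 0.06), with the ribonucleotide reductase gene Rrm2 nearest (0.64 ± 0.16). At an unadjusted p under 0.05 there were 5, against 18.8% of all genes tested. With voom weights 0 were called, with the replicate block 2 were called higher, and with a minimum of 4 CPM or without Nr4a1 KO replicate 1 it was 1. The Cdc20 call ended without Bcl6 cKO replicate 2 (adjusted p = 0.128). That of Kif11 ended without Bcl6 cKO replicate 1 (adjusted p = 0.224) or 2 (0.0926), Nr4a1 KO replicate 2 (0.107), or Irf2 KO replicate 1 (0.0599) or 2 (0.0591), and also under quantile normalization or median centring.

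Protein complexes that are usually expressed in balance showed large differences in single subunits. Of 77 tested nuclear genes of the respiratory chain 68 lay within 0.5 of 0, and the median was 0.06. Called were 10 of the 77 (12.987%, against 5.75% of all genes tested), all higher in Bcl6 cKO. Beside Cox6a1 these included Uqcrc1, a core subunit of complex III, at 9.40 and 9.59 in Bcl6 cKO, 6.55 and 7.11 in Nr4a1 KO and 9.83 and 9.96 in wild type (2.67 ± 0.17, adjusted p = 0.00012). Cox8a, of complex IV, read 6.94 and 7.72 against 4.91 and 5.13, below wild type (8.70 and 8.80) in both (2.32 ± 0.22, adjusted p = 0.000671). Cox5b (1.20 ± 0.23, adjusted p = 0.0182) and Ndufa6 (1.10 ± 0.10, adjusted p = 0.000574) followed. Subunits of the same machinery such as Atp5c1 (0.00, adjusted p = 0.989) and Sdhb (0.11, adjusted p = 0.526) did not pass. Nor did any of the 13 genes encoded in mitochondrial DNA (median -0.02, 0 called with voom weights). At an unadjusted p under 0.05 there were 2 of the 13, against 18.8% of all genes tested. The Cox5b call ended without Bcl6 cKO replicate 2 (adjusted p = 0.15) or Nr4a1 KO replicate 1 (0.0548). The number of called subunits was 5 without Bcl6 cKO replicate 2 and 6 without Nr4a1 KO replicate 1 or without the trend.

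The mitochondrial ribosome had the same shape. Of 75 tested genes 13 were called (17.3%, against 5.75% of all genes tested), all higher in Bcl6 cKO. Within 0.5 of 0 lay 60 genes, and the median of 0.04 was -0.02 under quantile normalization. Mrpl12 read 6.26 and 6.57 in Bcl6 cKO, 3.91 and 3.86 in Nr4a1 KO and 6.40 and 6.68 in wild type, or 5.78-fold higher than in Nr4a1 KO (2.53 ± 0.14, adjusted p = 0.000103). Mrpl34 (1.79 ± 0.13), Mrpl37 (1.70 ± 0.12), Mrpl57 (1.58 ± 0.21), Mrpl58 (1.51 ± 0.17) and Mrpl15 (0.99 ± 0.12) followed, all called whichever library was left out. All 6 were called lower in Nr4a1 KO than in wild type, and in Bcl6 cKO only Mrpl57 was (-1.23, adjusted p = 0.0156).

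Cytosolic ribosomal protein genes gave 1 called gene of 80, the acidic stalk protein Rplp2, at 10.04 and 10.26 in Bcl6 cKO, 9.15 and 9.25 in Nr4a1 KO and 10.04 and 10.28 in wild type (0.95 ± 0.11, adjusted p = 0.00168). Its partner in the stalk, Rplp0, lay at 0.01, and 1.25% of the list was called, against 5.75% of all genes tested. Of 38 proteasome genes 4 were higher and none lower (10.5% called, against 5.75% of all genes tested, median -0.07). They were led by Psmd8 of the regulatory lid (8.11 and 8.21 against 6.75 and 7.13, adjusted p = 0.00122). Of 54 translation initiation genes 5 were higher and none lower (9.26% called, against 5.75% of all genes tested, median -0.01). Eif1, which guards start codon choice, read 8.28 and 8.91 in Bcl6 cKO, 6.26 and 6.40 in Nr4a1 KO and 10.00 and 9.97 in wild type (2.27 ± 0.18, adjusted p = 0.00021). Eif1ax read 7.03 and 7.08 against 5.12 and 5.34, with wild type at 7.13 and 6.98 (1.83 ± 0.11, adjusted p = 0.000119). Bcl6 cKO thus lay level with wild type for Eif1ax and between wild type and Nr4a1 KO for Eif1. Eif4g1 (1.29 ± 0.13), Eif5a (0.96 ± 0.12) and Eif6 (0.91 ± 0.13) were the rest, and the Eif6 call ended without Bcl6 cKO replicate 2 (adjusted p = 0.0605).

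**Figure D5:**
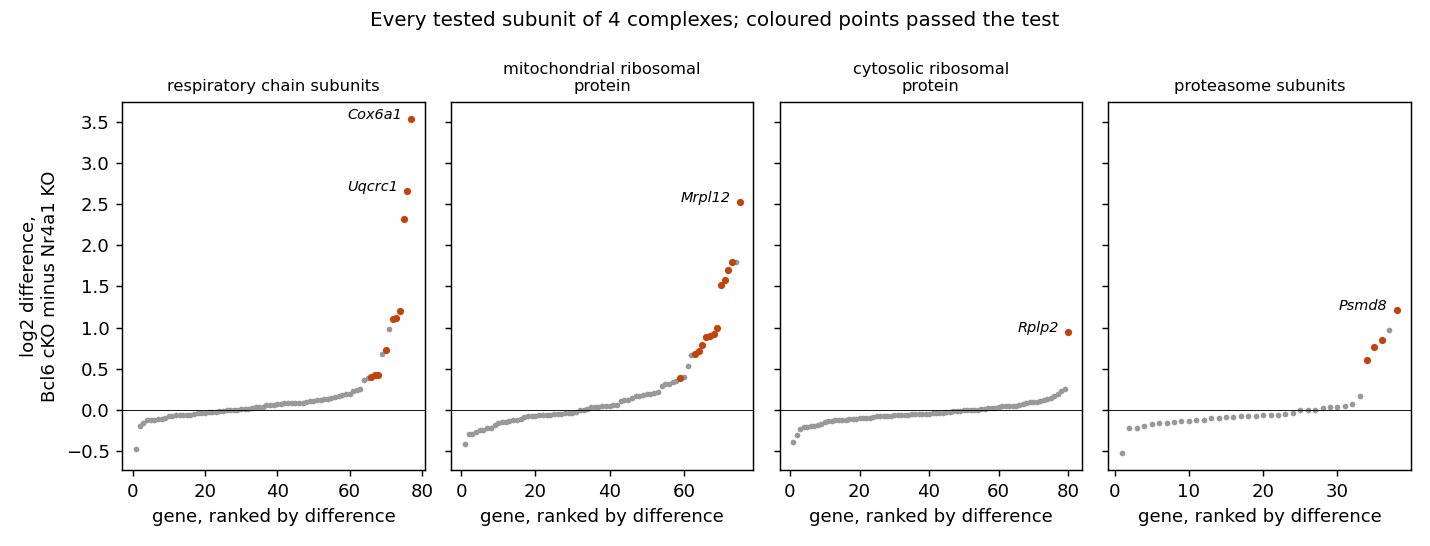
Difference of every tested subunit of 4 complexes (vertical axis, log2 of Bcl6 cKO over Nr4a1 KO), ranked from lowest to highest. Most subunits lie near 0, and a few called ones rise at the right end, up to 3.54 for Cox6a1 and 2.53 for Mrpl12.

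Called genes higher in Bcl6 cKO had a median GC content of 52.2% and transcript length of 2414 bases, those lower 48.2% and 3194 bases, and all genes tested 49.0% and 2965 bases. With a correction for both, 564 genes were called higher and 169 lower, and 0 of the 72 called genes named by the rule were lost. Beyond this correction, the part of base composition in single genes was not tested. The cDNA kit does not mark strand, so reads of overlapping genes on opposite strands cannot be told apart.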

How the data were processed

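RNA of 8 libraries (Ly6C-positive marrow monocytes, 4 genotypes with 2 libraries each) was made into cDNA and sequenced, per the labels' protocols. The submitters' processing notes list STAR, Subread featureCounts, Salmon, limma and mm10 but give them no sequence. The deposited values are log2 CPM per gene and library, scaled by the authors, and undoing the log gave whole reads within 0.01. Repeated rows (45) were left out.

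A limma 3.58.1 model (R 4.3.3) gave each of the 4 genotypes a mean, took its spread from all 8 libraries, and moderated variances along a trend. P-values were Benjamini-Hochberg adjusted over 12752 genes (threshold 0.05), on 4 residual plus 4.66 prior degrees of freedom. The procedure was tested on simulated data. There it recovered 7.46% of planted 1.5-fold changes, 44.8% of 2-fold and 80.3% of 4-fold, so a gene that did not pass may still differ. Plots used Python 3.11.15 and matplotlib 3.10.9, and positions, GC content and length come from GENCODE M21.

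Named by rule were the 3 targeted genes, the 12 largest differences each way (called, protein-coding, groups apart, mean of 2 log2 CPM or more), and per list up to 6 called members by size and up to 4 others by level. Some genes that the rule gives are not reported here. The comparison, lists and members were chosen with earlier results of these data known. Alternatives were no trend, no filter, 4 CPM as the minimum, median centring, quantile normalization, the 2 groups alone, the replicate number as a block, library weights, a GC and length correction, leaving out each library, and, added after seeing the data, voom precision weights. A lone library of a group was assumed to vary like the other groups.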

Additional observations from a re-analysis of the deposited data

How the results depend on the processing

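The 733 called genes became 484 when only the 2 groups compared were fitted, with 55 lower, and 169 were lower with the GC and length correction. Leaving out single libraries gave 250 to 859 called genes, 232 to 735 higher and 18 to 131 lower. No trend gave 506 and voom precision weights 694. The labels give same-numbered libraries no shared animal or day. Their deviations correlated at 0.07 between the 2 knockouts, 0.18 between Nr4a1 KO and wild type, 0.11 between Nr4a1 KO and Irf2 KO, and 0.06 or less in the other pairs of groups, so the numbers were not taken to pair the samples. With the replicate block 796 genes were called, 681 higher and 115 lower. Of 72 called genes named here by the rule, 40 remained called whichever library was left out, and 14 were lost without the trend, 7 with only the 2 groups fitted and 2 with voom weights. Ifi47 and Irgm1, not called with all libraries, were 1.51 (adjusted p = 0.0404) and 1.16 (adjusted p = 0.0464) without Nr4a1 KO replicate 2, and -1.75 (adjusted p = 0.0254) and -1.37 (adjusted p = 0.0267) without replicate 1.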
